A study of Mus musculus with 5 samples.

Results

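The genes described here mark the epithelial and the mesenchymal state of a cell. They were chosen by symbol, 10 of the 32285 genes listed in the count matrices, and all 10 were found. The 6 epithelial members are Cdh1, Epcam, Esrp1, Cldn4, Cldn6 and Cldn7, and the 4 mesenchymal members are Vim, Fn1, Zeb1 and Tagln. They were read in 5 droplet single-cell RNA libraries of the mouse embryonic stem (ES) cell line REX-1 RFP, which carries a red fluorescent protein under the Rex1 promoter (Rex1 is the gene Zfp42). All cultures started in medium containing LIF (leukaemia inhibitory factor), a cytokine used to keep mouse ES cells undifferentiated, and then spent 72 h in their own condition. NS cells had LIF and no sorbitol is named for them. ND cells had no LIF, and the labels spell out neither name. The sorbitol cells had LIF together with 200, 250 or 300 mM sorbitol, an osmolyte that makes the medium hyperosmotic. Each condition is 1 library, whether the line is a single clone is not given in the sources used here, and no sort on the reporter is named.

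Epithelial cells are held together by adherens junctions, built on the cadherin encoded by Cdh1, and by tight junctions, whose strands are made of claudins. In an epithelial-mesenchymal transition, transcription factors of the ZEB, SNAI and TWIST families repress these genes, and cells take up vimentin filaments, fibronectin matrix and contractile actin proteins. Mouse ES cells grow as compact colonies that depend on E-cadherin, and they lose this form when they enter mesoderm or endoderm.

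ZEB and SNAI proteins bind the E-box CACCTG, which reads CAGGTG on the other strand. RefSeq promoter windows (GRCm38.p6, 250 bases before to 50 after a start site) were matched for 5 of the 10 members: Epcam, Cldn4, Cldn6, Cldn7 with 2 start sites, and Vim. Of these 6 windows, 4 held the E-box on either strand, each of them at 2 positions. Among all 32851 promoter windows of the same length, 20.2% held at least 1 such E-box and 2.88% held 2 or more. The CArG box, the element bound by serum response factor (SRF), was searched on both strands. It was in 0 of the 6 windows and in 1.63% of all windows. Epcam and Cldn4 are shown because they carry the motif of the factor encoded by Zeb1, another member. Each line gives the 250 bases before the start site, 5′ to 3′ on the gene's strand, with the E-box in capitals. They lie at chr17:87635729-87635978 (plus strand) for Epcam and at chr5:134946935-134947184 (minus strand) for Cldn4, both intergenic in GENCODE M21.
Epcam: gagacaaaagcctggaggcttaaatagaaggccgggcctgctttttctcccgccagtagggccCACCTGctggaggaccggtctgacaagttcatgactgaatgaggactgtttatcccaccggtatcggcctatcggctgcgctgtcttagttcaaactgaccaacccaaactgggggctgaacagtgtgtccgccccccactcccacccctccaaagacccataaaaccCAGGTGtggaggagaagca
Cldn4: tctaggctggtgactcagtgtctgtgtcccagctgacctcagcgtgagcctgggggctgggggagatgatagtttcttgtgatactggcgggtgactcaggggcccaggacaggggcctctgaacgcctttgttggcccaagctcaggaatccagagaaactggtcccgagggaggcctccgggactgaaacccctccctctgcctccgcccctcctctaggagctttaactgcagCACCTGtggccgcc
In Epcam the motifs begin 187 and 19 bases before the start site. In Cldn4 one begins 14 bases before it, and the other lies outside the printed stretch, 11 bases after the start. Cldn6 has them 93 bases before and 40 after its start, and Cldn7 has them 97 and 57 bases before its second start. In GENCODE M21 the Cldn6 window, this second Cldn7 window and the Vim window overlap an annotated exon of their own gene. Motifs in them need not lie outside transcribed sequence. A match describes these letters only and says nothing of binding in these cells.

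Levels are CPM, the unique molecular identifiers (UMIs) of a gene summed over the kept barcodes of a library and scaled to that library's total. Ranges in brackets are exact 95% intervals, which cover counting error only. With 1 library per condition there is no test, a ratio is one between libraries, and a batch cannot be told apart from a condition. Every matrix held 10000 barcodes, of which 9240 to 10000 were kept, and total UMIs were 22158653 in NS and 8404105 to 9766705 in the others. NS was thus the deepest library, with a median of 2135 UMIs per kept barcode against 801 to 939. Any pair of libraries shared 34 to 54 barcode sequences. All 9 ES cell markers were above 5 CPM in each library, the lowest being Esrrb with 73.8 CPM at 200 mM sorbitol. The median gene stood above NS on the log2 scale by 0.08 in ND and by 0.20, 0.23 and 0.29 at the 3 doses. Median-of-ratios scaling, which centres the typical gene, lowers each ratio by 0.02 in ND and by 0.22, 0.24 and 0.26 at the doses.

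Summed over the 6 epithelial members, the level was 413 CPM (404 to 421) in NS and 459 (444 to 474) in ND, and at 200, 250 and 300 mM sorbitol it was 362, 342 and 347. The 4 mesenchymal members together stood at 136 CPM (132 to 141) in NS, 184 (175 to 194) in ND and 318, 337 and 456 at the doses. Behind these sums the members of a class did not share one pattern. Cdh1 was higher with sorbitol while the other 5 epithelial members had lower values than NS, and Fn1 was higher at all doses and Zeb1 at 250 and 300 mM while Tagln had few UMIs. Without LIF, Esrp1, Cldn6, Fn1 and Tagln were higher and Vim was lower. Fn1 makes up most of the mesenchymal sum in every library.

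**Figure D1:**
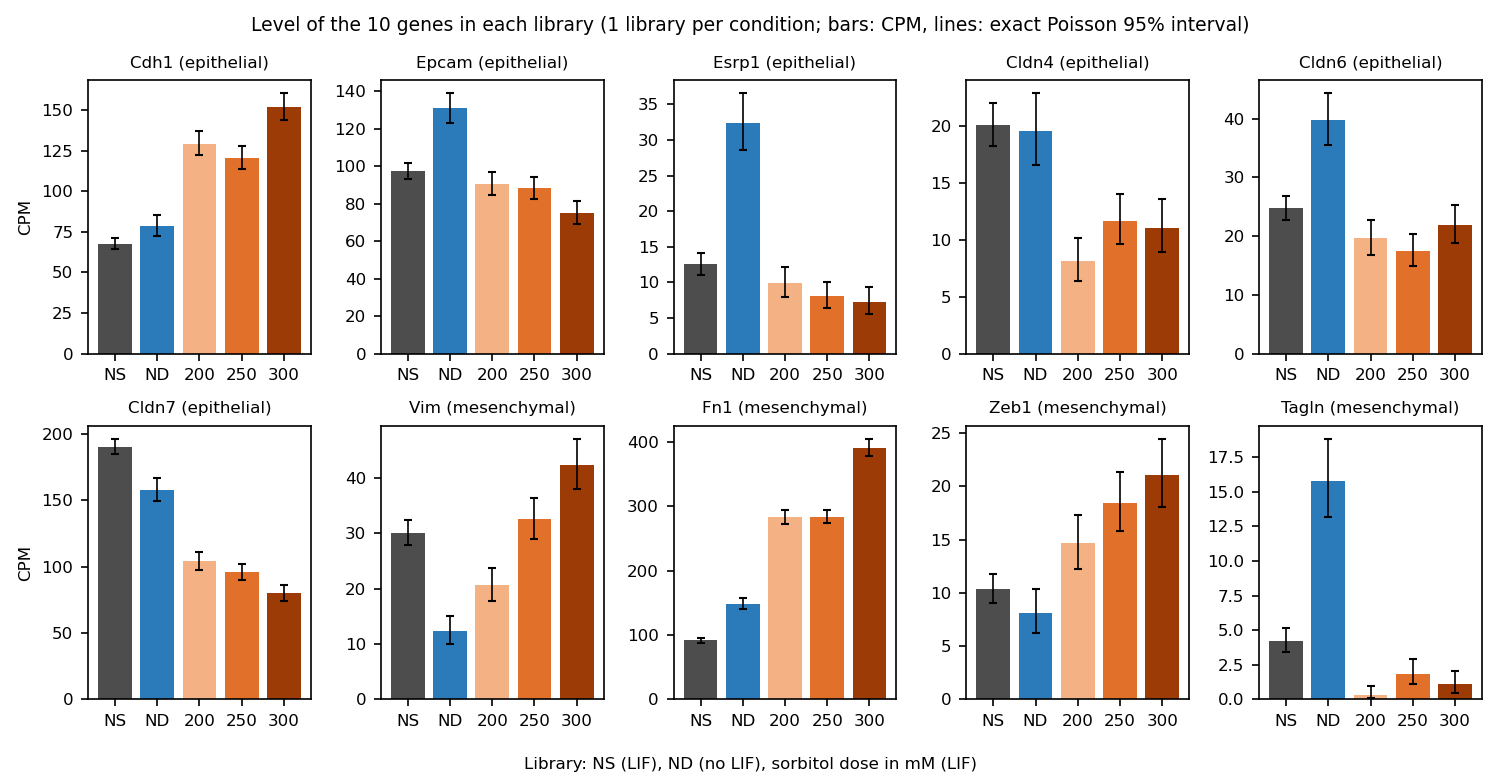
Level of each of the 10 genes (y axis, CPM, starting at 0 with its own scale) in the NS, ND and 3 sorbitol libraries (x axis, dose in mM). Bars are the level in 1 library and lines the exact Poisson 95% interval; Cdh1 and Fn1 are highest at 300 mM, Cldn7 is highest in NS, and Esrp1 and Tagln are highest in ND.

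Cdh1 encodes E-cadherin, the adhesion receptor of adherens junctions (ENSMUSG00000000303; mm10 chromosome 8, 106603351 to 106670246, plus strand). It stood at 67.7 CPM (64.3 to 71.2) in NS, 78.8 (72.7 to 85.2) in ND, and 129 (122 to 137), 121 (114 to 128) and 152 (144 to 160) at 200, 250 and 300 mM sorbitol. All 3 sorbitol libraries lay above the others, and only the intervals at 200 and 250 mM overlapped. Relative to NS its log2 ratio was 0.93, 0.83 and 1.17 (1.06 to 1.27) over the doses, the last a 2.24-fold difference. In ND it was 0.22 (0.08 to 0.35).

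Epcam encodes an adhesion molecule of the epithelial surface that is also a standard marker of undifferentiated ES cells (ENSMUSG00000045394; chromosome 17, 87635979 to 87651129, plus strand). Its level was 97.3 CPM (93.3 to 102) in NS, 131 (123 to 139) in ND and 90.7 (84.6 to 97.1), 88.3 (82.5 to 94.4) and 75.1 (69.3 to 81.3) at the doses. ND was the highest and 300 mM the lowest, both apart from the rest, while the intervals of NS, 200 mM and 250 mM ran into one another. The log2 ratio to NS was 0.43 (0.32 to 0.53) in ND and -0.37 (-0.50 to -0.24) at 300 mM. Neither reached the 1.5-fold used here to count a gene as higher or lower, although the second did with median-of-ratios scaling (-0.63).

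Esrp1 encodes an RNA-binding protein that directs the epithelial pattern of splicing (ENSMUSG00000040728; chromosome 4, 11331933 to 11386783, minus strand). It had 12.5 CPM (11.1 to 14.1) in NS, 32.4 (28.5 to 36.6) in ND and 9.87 (7.95 to 12.1), 8.09 (6.40 to 10.1) and 7.24 (5.52 to 9.31) at the doses. ND stood apart from all other libraries, and each of the remaining 4 overlapped its neighbour in the order of levels. Without LIF the gene was 2.58-fold higher than in NS (log2 1.37, 1.12 to 1.62), and at 300 mM it was lower by a log2 ratio of -0.79 (-1.22 to -0.39). Between 300 mM sorbitol and ND the difference was 4.47-fold (log2 -2.16, -2.59 to -1.75).

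The claudins form the strands of tight junctions. Cldn7 (ENSMUSG00000018569; chromosome 11, 69964779 to 69967885, plus strand) stood at 190 CPM (185 to 196) in NS, 158 (149 to 167) in ND and 104 (97.4 to 111), 95.6 (89.6 to 102) and 79.8 (73.9 to 86.2) at the doses. NS was the highest, ND came next, and the order below them followed the dose, with overlap at 200 and 250 mM only. The log2 ratio to NS was -0.27 in ND and -0.87, -0.99 and -1.25 (-1.37 to -1.13) with sorbitol, where the last is 2.38-fold lower.

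Cldn4 (ENSMUSG00000047501; chromosome 5, 134945119 to 134946934, minus strand) had 20.1 CPM (18.3 to 22.1) in NS, 19.6 (16.6 to 22.9) in ND and 8.14 (6.40 to 10.2), 11.7 (9.63 to 14.0) and 11.1 (8.94 to 13.6) at the doses. Its 3 sorbitol libraries overlapped one another and lay below NS and ND, which also overlapped. The log2 ratios to NS with sorbitol were -1.31 (-1.68 to -0.95), -0.79 and -0.86. The ratio in ND, -0.04 (-0.31 to 0.23), changed sign to 0.02, 0.03 and 0.11 with no barcode filter, without the barcodes of most UMIs and with barcodes thinned.

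Cldn6, the claudin most closely tied to embryonic epithelia and pluripotent cells (ENSMUSG00000023906; chromosome 17, 23679249 to 23682446, plus strand), had 24.7 CPM (22.7 to 26.9) in NS and 39.7 (35.4 to 44.4) in ND. With sorbitol it had 19.6 (16.9 to 22.7), 17.5 (15.0 to 20.3) and 21.9 (18.9 to 25.4). ND stood apart, 1.61-fold above NS (log2 0.68, 0.48 to 0.89), and the sorbitol libraries overlapped each other. No dose reached 1.5-fold below NS by CPM (log2 -0.33, -0.50 and -0.17), but 250 mM did with median-of-ratios scaling (-0.73).

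Among the mesenchymal members, Fn1 encodes fibronectin, a matrix protein bound by integrins (ENSMUSG00000026193; chromosome 1, 71585520 to 71653200, minus strand). It stood at 91.7 CPM (87.8 to 95.8) in NS, 148 (140 to 157) in ND and 283 (272 to 294), 284 (273 to 295) and 391 (378 to 405) at the doses. Every library lay apart from its neighbour in the order except 200 and 250 mM. The log2 ratio to NS was 0.69 (0.58 to 0.79) in ND and 1.62, 1.63 and 2.09 (2.01 to 2.17) with sorbitol. The last is a 4.26-fold difference, with a log2 ratio of 1.83 by median-of-ratios scaling.

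Zeb1 encodes the zinc finger factor that is known to repress Cdh1 and other epithelial genes through E-boxes (ENSMUSG00000024238; chromosome 18, 5591860 to 5775467, plus strand). It had 10.4 CPM (9.08 to 11.8) in NS, 8.10 (6.23 to 10.3) in ND and 14.6 (12.3 to 17.3), 18.4 (15.8 to 21.3) and 21.1 (18.1 to 24.5) at the doses. All sorbitol libraries lay above NS and ND, with each dose overlapping the next, and NS and ND overlapped. The log2 ratio to NS was 0.50 (0.18 to 0.81), 0.83 (0.54 to 1.12) and 1.02 (0.73 to 1.31) over the doses and -0.36 (-0.78 to 0.05) in ND. Zeb1 and Cdh1 were therefore both above NS at each dose. Of the members whose windows held E-boxes, Cldn4 and Cldn7 were lower with sorbitol, and Epcam and Cldn6 lay within 1.5-fold of NS by CPM. No promoter window of Cdh1 was searched.

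Vim encodes vimentin, the intermediate filament of mesenchymal cells (ENSMUSG00000026728; chromosome 2, 13573927 to 13582826, plus strand). Its level was 30.1 CPM (27.9 to 32.5) in NS, 12.4 (10.1 to 15.1) in ND and 20.6 (17.8 to 23.8), 32.6 (29.1 to 36.3) and 42.5 (38.1 to 47.1) at the doses. ND was the lowest, 200 mM lay below NS and 300 mM above it, each apart, while 250 mM overlapped NS. The log2 ratio to NS was -1.28 (-1.60 to -0.97) in ND, a 2.43-fold lower level, and -0.55, 0.11 and 0.50 with sorbitol. Median-of-ratios scaling turned the value at 250 mM to -0.12 and took that at 200 mM past 1.5-fold (-0.77). Of the members reaching 5 CPM, Vim was the only one to pass 1.5-fold from one dose to the next, between 200 and 250 mM (log2 0.66, 0.40 to 0.93).

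Tagln encodes transgelin, an actin-binding protein of smooth muscle and a target of SRF (ENSMUSG00000032085; chromosome 9, 45929619 to 45936058, minus strand). It had 94 UMIs in NS, 125 in ND and 3, 18 and 9 at the doses, the fewest of any member in all libraries but ND. In CPM this is 4.24 (3.43 to 5.19), 15.8 (13.2 to 18.8), 0.325 (0.0671 to 0.951), 1.84 (1.09 to 2.91) and 1.09 (0.496 to 2.06). ND was the highest and NS the next, both apart from the sorbitol libraries. It was 3.73-fold higher in ND than in NS (log2 1.90, 1.5 to 2.30). Against NS the log2 ratios with sorbitol were -3.70 (-6.01 to -2.11), -1.20 (-2.02 to -0.46) and -1.97 (-3.14 to -0.98), the first resting on 3 UMIs. Between doses its log2 ratio was 2.50 (0.73 to 4.91) from 200 to 250 mM and -0.76 (-2.10 to 0.47) from 250 to 300 mM. Tagln was under 5 CPM in all libraries but ND, so it enters no count of members for sorbitol against NS.

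Reads of overlapping genes cannot be separated without knowing whether counting used strand, which is not given in the sources used here. Tagln shares 108 bases at its end with Pcsk7, which runs the other way and had 6.54 CPM in NS, 6.32 in ND and 20.3, 19.2 and 24.4 at the doses, so it was higher with sorbitol where Tagln was lower. The antisense gene Gm48529 within Tagln had 0.361 to 1.74 CPM. Apol7d, antisense at the start of Fn1, had 1.21 to 2.15 CPM. Gm10125, which overlaps the start of Zeb1, had at most 0.717 CPM. Gm26663 overlaps Esrp1 and was not analysed here.

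**Figure D2:**
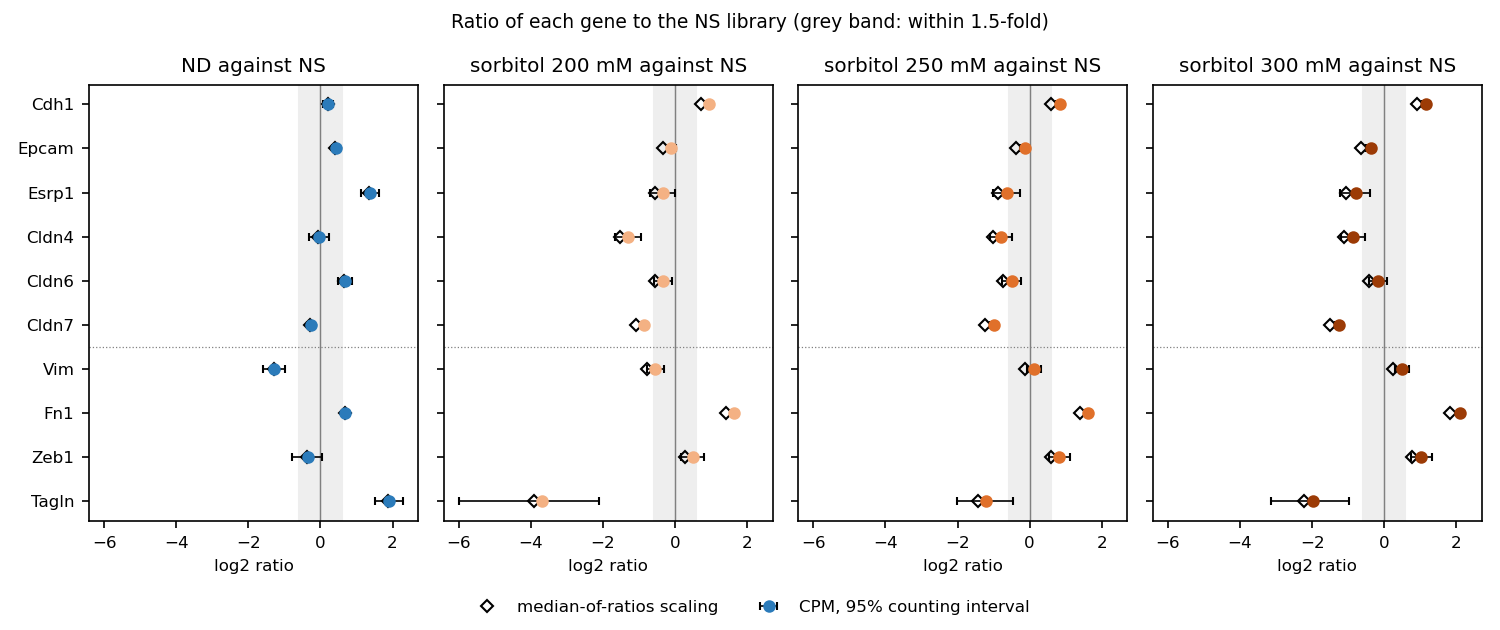
Log2 ratio of each gene to NS (x axis) for ND and the 3 sorbitol doses, with the 6 epithelial members above the dotted line and the 4 mesenchymal members below. Filled points are CPM with exact 95% counting intervals and open diamonds median-of-ratios scaling; the grey band is 1.5-fold, and with sorbitol Cdh1 and Fn1 lie right of it and Cldn4 and Cldn7 left of it under both scalings.

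A gene was counted if it reached 5 CPM in one of the libraries compared, as higher or lower from 1.5-fold. ND against NS had 2 of 6 epithelial members higher (Esrp1 and Cldn6) and 0 lower. Over all 10210 genes so measured, 10% were higher and 7.07% lower. Of the 4 mesenchymal members, 2 were higher (Fn1 and Tagln) and 1 lower (Vim). The median log2 ratio was 0.32 for the epithelial and 0.17 for the mesenchymal members, beside 0.08 for all measured genes. Tagln passed the level minimum through ND alone.

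Against NS, the 200 mM library had 1 of 6 epithelial members higher (Cdh1) and 2 lower (Cldn4 and Cldn7), beside 26.8% of all measured genes higher and 11% lower. Of 3 measured mesenchymal members, 1 was higher (Fn1) and 0 lower. At 250 mM, 1 epithelial member was higher (Cdh1) and 3 lower (Esrp1, Cldn4 and Cldn7), beside 26.5% and 8.69% of all genes. Fn1 and Zeb1 were the 2 of 3 mesenchymal members higher there. At 300 mM the same counts and the same genes recurred, beside 32.8% higher and 10.6% lower of all 10671 measured genes. The median of the epithelial members was -0.34, -0.57 and -0.58 over the doses while that of all measured genes was 0.20, 0.23 and 0.29. For the 3 mesenchymal members it was 0.50, 0.83 and 1.02. Median-of-ratios scaling made 4 epithelial members lower at 250 mM, with Cldn6 added, and at 300 mM, with Epcam added, and it made Vim lower at 200 mM. Under that scaling 17.4%, 15.7% and 20.2% of all measured genes were higher over the doses and 18.5%, 16.1% and 18.8% lower, and in ND 9.17% and 7.59%. Read against the shares of all genes, 1 of 6 epithelial members higher at each dose is near or below the background. The 2 or 3 of 6 that were lower lie above it, on 6 genes and with no test. All comparisons with NS share that library.

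From 200 to 250 mM, 1 of 9 measured members was higher (Vim) and 0 lower, beside 3.57% and 3.42% of all genes. From 250 to 300 mM, 0 of 9 were past 1.5-fold, beside 3.51% higher and 2.18% lower. Sorbitol at 300 mM against ND sets LIF with sorbitol beside no LIF. There Cdh1 was the 1 of 6 epithelial members higher (log2 0.95) and the other 5 were lower, from -0.80 for Epcam to -2.16 for Esrp1, where 27.9% of all genes were higher and 11.4% lower. Of the mesenchymal members, Vim (1.78), Fn1 (1.40) and Zeb1 (1.38) were higher and Tagln was lower (-3.86, -5.03 to -2.89). These calls were the same under median-of-ratios scaling, where 17.8% of all genes were higher and 19.5% lower. Tagln, at 1.09 CPM against 15.8 in ND, reached the minimum through ND alone, which fixed its direction.

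The genes around E-cadherin were read from lists of the wider pathway, of which the first holds Cdh1 itself. Their counts are read against all measured genes, of which 10% were higher and 7.07% lower in ND and 32.8% higher and 10.6% lower at 300 mM (20.2% and 18.8% by median-of-ratios scaling). A scarce gene that reached 5 CPM only in the library set against NS had to lie above NS, and one that reached it only in NS had to lie below, so the minimum itself fixes their direction. Of 14 cadherin, catenin and desmosome genes, 13 were measured in both comparisons given here. In ND 3 were higher and 0 lower, among them Nectin3, an adhesion receptor of the adherens junction (17.9 to 32.5 CPM, log2 0.86), and Dsp, the desmosomal plaque protein (38.9 to 68.3 CPM, log2 0.81). At 300 mM sorbitol 6 were higher and 0 lower by CPM, and 4 were higher and 2 lower by median-of-ratios scaling, which is near the share of all genes. Cdh3, which encodes P-cadherin, was 3.77-fold higher there (7.90 to 29.8 CPM, log2 1.92). Dsg2, a desmosomal cadherin, was 2.59-fold higher (31.2 to 80.9 CPM), and Ctnnb1, the beta-catenin that binds the cadherin tail, 2.19-fold (119 to 261 CPM). The median log2 ratio of the list was 0.22 in ND and 0.44 at 300 mM, beside 0.08 and 0.29 for all measured genes.

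Tight junction genes other than claudins include scaffold proteins and adhesion receptors of the same junction. Of 8 measured at 300 mM, 6 were higher and 0 lower, or 4 and 0 by median-of-ratios scaling. Magi1, a scaffold protein, went from 10.1 to 25.2 CPM (log2 1.32). Cxadr, an adhesion receptor, went from 10.1 to 23.9 CPM (log2 1.25), and F11r, the junctional adhesion molecule A, from 29.2 to 58.1 CPM (log2 0.99). In ND 3 of 9 were higher and 0 lower. Those past 20 CPM in ND were within 1.5-fold, among them F11r (log2 0.49) and Tjp1 (log2 0.44), so the 3 higher ones were under 20 CPM. A gene of this list measured in ND but not at 300 mM was under 5 CPM in NS, which fixed its direction. The list's median was 0.49 in ND and 0.84 at 300 mM.

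Apical-basal polarity genes were within 1.5-fold of NS in ND in all 10 cases, and 3 of 10 were higher at 300 mM sorbitol, close to the share of all genes. These were Llgl2 (42.7 to 103 CPM, log2 1.26), Prkci, the atypical protein kinase C of the PAR complex (35.4 to 75.6 CPM, log2 1.10), and Scrib (25.4 to 49.6 CPM, log2 0.97). Of other epithelial surface and trafficking genes, 4 of 11 were higher in ND, among them the clathrin adaptor gene Ap1m2 (log2 0.80), and 5 of 10 at 300 mM with 1 lower. Here too a gene measured in ND but not at 300 mM was under 5 CPM in NS, which fixed its direction. Itga6, an integrin subunit that binds laminin, led at 300 mM among those reaching 20 CPM (58.7 to 164 CPM, log2 1.49). Spint1 (log2 0.90) and Spint2 (log2 0.85), inhibitors of membrane serine proteases, followed. Median log2 ratios were 0.12 in ND and 0.48 at 300 mM for the polarity genes, and 0.38 and 0.70 for the surface genes.

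Regulators of the epithelial state, a list that includes Esrp1, had 5 of 9 higher and 1 lower in ND, and 6 of 8 higher and 1 lower at 300 mM. By median-of-ratios scaling these were 4 and 2 in ND and 5 and 1 at 300 mM. Of those higher, Esrp2 and Ovol2 in ND and Grhl3 and Ovol2 at 300 mM were under 5 CPM in NS. The median log2 ratio was 0.59 in ND and 1.19 at 300 mM. Grhl2, a transcription factor that activates junction genes, was 2.44-fold higher in ND (10.6 to 25.8 CPM). Rbm47, an RNA-binding protein gene, was higher in both, from 29.4 CPM in NS to 64.0 in ND and 97.7 at 300 mM. Klf4, a factor induced by LIF that also activates epithelial genes, was 3.31-fold lower in ND (102 to 30.9 CPM) and 3.88-fold higher at 300 mM (395 CPM). Klf5 was at 230 CPM in NS, 155 in ND (log2 -0.57, or -0.59 and counted as lower by median-of-ratios scaling) and 424 at 300 mM (log2 0.88).

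Of 11 transcription factors of epithelial-mesenchymal transition, Zeb1 included, 5 were measured. Snai1, Snai2, Zeb2, Twist2, Foxc2 and Prrx1 were under 5 CPM in all 5 libraries, and Twist1 reached 6.59 CPM in NS. Among them Snai1 went from 1.85 CPM in NS to 4.2 at 250 mM and 4.94 at 300 mM (log2 1.42, 0.76 to 2.08). In ND 2 of the 5 were higher and 1 lower. At 300 mM 3 were higher and 1 lower, or 2 and 2 by median-of-ratios scaling. Tcf3, a basic helix-loop-helix factor that can repress Cdh1, was higher in ND (log2 0.62) and at 300 mM (log2 0.87). Id2, an inhibitor of such factors, was higher in ND (31.6 to 53.1 CPM, log2 0.75) and lower at 300 mM (13.9 CPM, log2 -1.19). Tcf4 had a log2 ratio of 0.05 in ND and 0.71 at 300 mM, the latter 0.45 by median-of-ratios scaling. Over the 5 measured genes the median was 0.05 in ND and 0.71 at 300 mM.

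**Figure D3:**
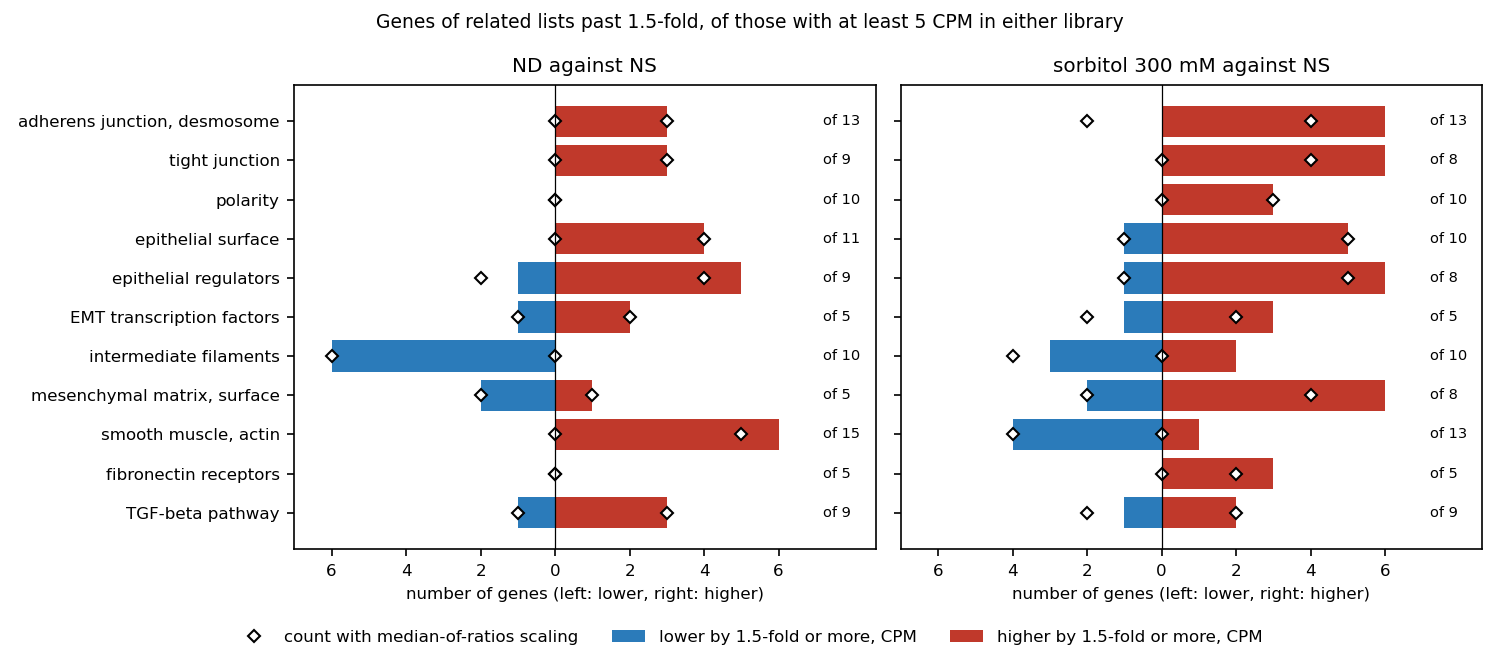
Number of genes past 1.5-fold (x axis; left lower, right higher) in 11 related lists for ND and for 300 mM sorbitol against NS, with the number measured at the right. Bars are CPM and diamonds median-of-ratios scaling; intermediate filament genes are lower in 6 of 10 in ND, and tight junction genes other than claudins higher in 6 of 8 at 300 mM by CPM and 4 by the other scaling.

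Vimentin belongs to the intermediate filaments, of which 6 of 10 were lower and 0 higher in ND. Besides Vim these included Krt19, a keratin of simple epithelia (81.3 to 16.9 CPM, 4.80-fold lower), the nuclear lamin gene Lmna (23.3 to 8.10 CPM, 2.88-fold lower) and the muscle filament gene Des (23.6 to 12.3 CPM, 1.93-fold lower). At 300 mM 2 were higher and 3 lower, or 0 and 4 by median-of-ratios scaling. Des was 5.60-fold lower there (4.22 CPM), Krt19 was lower by a log2 ratio of -0.90 (43.7 CPM), and Lmnb2 was at 0.77. Vim, Krt8, Krt18 and Krt19 were thus lower together without LIF, and Krt19 and Vim lay on opposite sides of NS at 300 mM. The list's median was -0.69 in ND and -0.04 at 300 mM.

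Mesenchymal matrix and surface genes, a list that includes Fn1, were mostly scarce. Of 19, 5 were measured in ND (1 higher, 2 lower) and 8 at 300 mM (6 higher, 2 lower, or 4 and 2 by median-of-ratios scaling). Of the 6 higher, Thy1, Ncam1 and S100a4 were under 5 CPM in NS. Sparc, a secreted matrix glycoprotein, was lower in ND (212 to 119 CPM, log2 -0.83) and higher at 300 mM (389 CPM, log2 0.88), unlike Fn1, which was higher in both. The collagen gene Col3a1 and the matrix gene Postn had 0 UMIs in every library, and N-cadherin, Cdh2, was under 5 CPM in all of them. Of 5 measured integrin subunits that bind fibronectin, 0 passed 1.5-fold in ND and 3 were higher at 300 mM (2 by median-of-ratios scaling). Among those higher was Itgav (14.9 to 35.0 CPM, log2 1.23). Itgb1, the shared beta subunit, was within 1.5-fold in both (log2 -0.04 and -0.14). Itga5, an alpha subunit of this list, was within 1.5-fold at 300 mM (18.0 to 21.5 CPM, log2 0.25, -0.01 to 0.51). By median-of-ratios scaling its log2 ratio there was -0.01. Medians were -0.28 in ND and 0.80 at 300 mM for the matrix list, and 0.01 and 0.81 for the integrins.

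Transgelin was read beside 18 other smooth muscle and actin genes. Of this list 15 were measured in ND, where 6 were higher and 0 lower, or 5 and 0 by median-of-ratios scaling. Tagln, one of the 6, was under 5 CPM in NS and passed the minimum through ND alone, which fixed its direction. It was not the only gene of the list to enter that way. Cnn2, an actin-binding calponin, went from 38.2 to 89.3 CPM (log2 1.22) and Actg1, a cytoplasmic actin, from 1232 to 2218 CPM (log2 0.85). Flna, which crosslinks actin, had a log2 ratio of 0.60, and 0.58 by median-of-ratios scaling. At 300 mM 1 of 13 was higher and 4 were lower, or 0 and 4 by that scaling, led by Tpm2, a tropomyosin (28.8 to 9.77 CPM, log2 -1.56), Cnn2 (21.3 CPM, log2 -0.84) and Tagln2 (150 to 88.0 CPM, log2 -0.77). Cnn2 therefore lay on the same side of NS as Tagln in both comparisons. In the TGF-beta pathway, a known inducer of mesenchymal genes, 3 of 9 were higher and 1 lower in ND, and 2 higher and 1 lower at 300 mM, or 2 and 2 by the other scaling. Skil, a repressor of SMAD proteins, had log2 ratios of 0.70 in ND and -0.57 at 300 mM, and the inhibitor Smad7 had -0.43 and 0.51. The actin list had a median of 0.35 in ND and -0.03 at 300 mM, and the TGF-beta list of 0.13 in both.

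Markers of other cell types moved with some members. The 9 primitive and extraembryonic endoderm markers, a lineage that lays down laminin and type IV collagen, summed to 68.1 CPM in NS, 32.9 in ND and 108, 132 and 147 at the doses. Of these 9, 3 were measured in ND and all 3 were lower, beside 7.07% of all measured genes. At 300 mM 4 were measured and all 4 were higher, beside 32.8% of all genes, or 20.2% by median-of-ratios scaling. A marker measured at 300 mM but not in ND was under 5 CPM in NS, so the minimum fixed its direction. Most of the sum came from Col4a1 (34.3 CPM in NS, 79.1 at 300 mM) and Lama1 (19.3 and 40.6), while Sox17 and Sox7 stayed under 1.5 CPM in every library and Gata4 under 5. Their sum was thus high where Fn1 was high with sorbitol and low in ND, where Fn1 was above NS. Their part in the Fn1 result was not tested.

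Trophoblast markers, 7 genes of which Krt7 is also among the intermediate filaments, summed to 101 CPM in NS, 146 in ND and 175, 188 and 211 at the doses, mostly Tfap2c and Hand1. In ND, Hand1 gave only 4.81 CPM of this sum. The 7 primitive streak and mesoderm markers summed to 32.5, 6.96, 64.4, 49.97 and 62.6 CPM in the same order, of which Hand1 gave 29.4, 4.81, 60.4, 47.2 and 60.2, and the defining gene T was at 0.121 to 0.253 CPM. The 9 fibroblast and feeder markers summed to 6.68, 5.94, 16.1, 9.52 and 13.0 CPM. Of these, 6 are also in the matrix list and Acta2 in the actin list. Col3a1 and Postn were at 0 throughout, and Dcn and Lum were at 0 or 1 to 2 UMIs. The part of these cell types in the Fn1, Vim and Zeb1 ratios was not tested. As a background level, 7 genes of blood, liver and pancreas summed to 3.16 to 5.22 CPM.

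The members' patterns over the 4 ratios to NS were set beside those of 6764 other genes, with likeness as the largest absolute difference in log2 ratio. Over these 5 libraries Cdh1 was matched most closely by Acadsb (0.04), Pla2g10 (0.06) and Mindy3 (0.06). Esrp1 was nearest to Emb (0.17), Kcnk1 (0.21) and the RNA-binding protein gene Lin28a (0.39). For Vim the nearest were Jam2, a junctional adhesion molecule (0.16), Plin2 (0.27) and Adap1 (0.39), and for Fn1 the amino acid transporter gene Slc1a4 (0.15), Znrf2 (0.19) and Togaram1 (0.20). Tagln had no close match. Its nearest were the Nodal inhibitor gene Lefty1 (0.99), Cpsf4l (1.26) and Ina (1.48). Lefty1 stood at 69.8 CPM in NS, 152 in ND and 9.98, 15.3 and 14.6 at the doses.

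To compare single barcodes across depths, each kept barcode was thinned to 500 UMIs. Fn1 then had a UMI in 3.92% of barcodes in NS (3.55 to 4.32), 7.14% in ND and 13.3%, 13.0% and 18.0% at the doses, where the unthinned shares were 18.2%, 11.9%, 22.7%, 23.8% and 27.8%. Cdh1 went from 3.09% in NS and 3.99% in ND to 6.21%, 5.98% and 6.89%, against 13.7%, 6.50%, 11.2%, 11.2% and 11.9% unthinned. NS has the deepest barcodes, so no order is read from the unthinned shares. In NS the thinned share of Cldn7 was 8.56%, in ND 7.32% and at the doses 5.42%, 4.55% and 3.88%, and the unthinned one 32.6%, 12.4%, 9.14%, 8.65% and 6.42%.

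In NS the thinned share of Vim was 1.55%, in ND 0.617% and at the doses 1.0%, 1.62% and 2.01%, and the unthinned one 6.24%, 1.05%, 1.89%, 3.12% and 3.51%. Tagln had a UMI in 16 of 10000 thinned barcodes in NS (0.160%), 78 of 9240 in ND (0.844%) and 2, 8 and 3 at the doses, or 0.910%, 1.30%, 0.0300%, 0.140% and 0.0812% unthinned. For genes that ES cells should lack, Hbb-bs had a UMI in at most 1 thinned barcode of a library and Alb in 0. The Tagln counts at 200 and 300 mM are at or under the 3 barcodes that a count of 0 allows.

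If every barcode of a library held the same mixture, a gene's level alone would fix its share of barcodes. That share lay inside the interval of the observed one for all 50 combinations of member and library. The variance of thinned counts over their mean was 0.969 to 1.05 in the 46 combinations with at least 30 barcodes with a UMI. The other 4 are of Tagln, with 1.40 at 250 mM on 8 barcodes. Krt8, a keratin gene and no member, reached 1.44 at 250 mM. The expected share comes from the same counts, so members fall near it almost by construction. This holds most for scarce ones such as Tagln and Esrp1, and the comparison resolves little. Krt18, which is no member, had a variance over mean of 1.13 to 1.34. Its expected share still lay inside the interval in each library. At this depth no subset of barcodes rich in a member was detectable among the 46 combinations. The Tagln value at 250 mM rests on 8 barcodes, 0 of them with 3 or more UMIs, which is too few to show a subset. Fewer barcodes with a transcript cannot be told apart from less of it per barcode. The deepest barcode of a library held 2.93 to 3.31 times the UMIs of its shallowest, and how barcodes were chosen is not given.

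**Figure D4:**
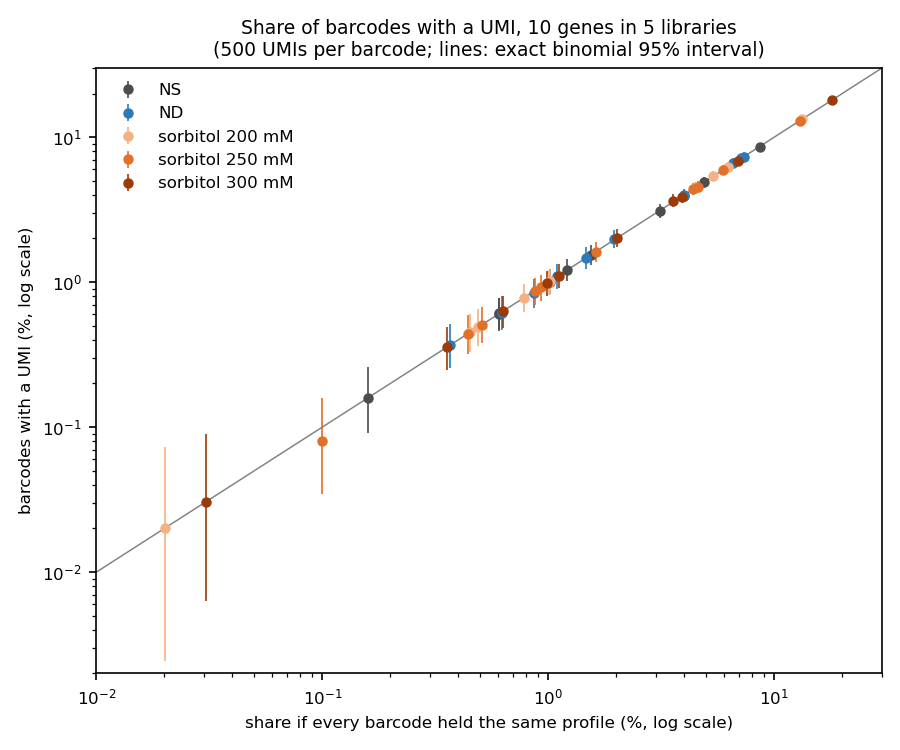
Share of barcodes with a UMI, thinned to 500 UMIs each (y axis, log scale), against the share expected if every barcode held the library's mean profile (x axis, log scale), for 10 genes in 5 libraries. Lines are exact binomial 95% intervals, and all 50 points lie on the diagonal within their interval. The expected share comes from the same counts, so points fall near the diagonal almost by construction.

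Barcodes with a UMI of both classes were about as frequent as the separate shares would give, within the width of the intervals. At least 1 epithelial member was seen in 17.9% of thinned barcodes in NS, 20.4% in ND and 16.8%, 15.7% and 15.4% at the doses. At least 1 mesenchymal member was seen in 6.16%, 8.87%, 14.9%, 15.2% and 20.5%. Both classes occurred together in 1.01% (0.823 to 1.23), 2.05%, 2.71%, 2.27% and 2.99% (2.66 to 3.34). The product of the shares was 1.10%, 1.81%, 2.50%, 2.40% and 3.16%, inside the interval in each library. Over 16 pairs of genes or sets in 5 libraries, 80 comparisons, 1 had intervals apart. In NS, Cldn7 had a UMI in 12.4% of barcodes with Epcam (9.64 to 15.7) and in 8.36% of those without (7.81 to 8.93). Overlapping intervals do not show equal shares. In each library the Tagln share was higher in barcodes with Acta2, Cnn1, Myl9, Tpm1 or Tpm2 than in those without, with intervals that overlapped. It was 0.608% against 0.120% in NS and 1.41% against 0.782% in ND, and 1 to 2 barcodes had both at the doses. Primitive endoderm markers gave 1 of 50 such cases, Tagln at 250 mM, which rests on 4 barcodes with and 4 without a marker.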

How the data were processed

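The deposited files hold raw UMI counts for each gene in each barcode of 5 libraries. Per the file headers, the counts come from Cell Ranger 6.0.1. The submitters' processing notes name that tool, the mm10 build, Seurat 4.1.1 and R 4.1.2, without roles. The labels' extraction protocol names Trizol and a Lexogen 3' kit, which does not describe droplet matrices. Not given in the sources used here are aligner settings, annotation, strand use and how barcodes were chosen.

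The barcodes kept had 500 genes or more and 20% mitochondrial UMIs or less, and no doublet caller was run. UMIs were summed per library and scaled to CPM (Python 3.11.15, SciPy 1.17.1). Levels have exact Poisson, shares exact binomial (Clopper-Pearson) and ratios exact conditional binomial 95% intervals. Counts below the floor of 3 UMIs were raised to it. Genes reaching 5 CPM in one of the 2 libraries counted at 1.5-fold. No test was possible with 1 library per condition. The counting of calls was tested on simulated data. These were Poisson counts drawn from the NS profile, with 200 genes changed 2-fold. They held no spread between cultures and no shift of the typical gene, so the check covers counting error only. Gene coordinates come from GENCODE M21 and are 1-based.

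The members, lists, markers and alternatives were chosen with earlier results of these data known. Named genes are all members, up to 3 per list with the largest absolute ratio among those with at least 20 CPM, for ND and for 300 mM against NS, and 3 genes of like pattern for 5 members. A gene named by this rule is not reported here. Gene names beyond this rule were chosen after their values were seen. Alternatives were median-of-ratios scaling, a total without mitochondrial and ribosomal protein genes, no barcode filter, at most 10% mitochondrial UMIs, no top 5% of barcodes by UMIs, thinning, 2-fold, 20 CPM and no CPM minimum.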

Additional observations from a re-analysis of the deposited data

How the results depend on the processing

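At 2-fold in place of 1.5-fold, epithelial members higher became 1 in ND and 0 at 200 and 250 mM, and those lower became 1 at 200 mM, 0 at 250 mM and 1 at 300 mM. Mesenchymal members higher became 1 in ND and 1 at 250 mM, and a minimum of 20 CPM gave the same 1 and 1. Epithelial members lower became 2 at 250 mM with thinned barcodes, and 2 at 250 and 300 mM with the 20 CPM minimum. Mesenchymal members lower were 2 in ND with thinned barcodes. At 200 mM they were 1 under thinning, median-of-ratios scaling, a total without mitochondrial and ribosomal protein genes, and no CPM minimum. At 250 and 300 mM they were 1 under the last 2 of these. The total without those genes and the absent minimum bring Tagln into the count. No call was reversed. Of 40 log2 ratios of members to NS, median-of-ratios scaling moved 15 beyond their counting interval, thinning 8, the smaller total 2 and the barcode filters 0. The signs of Cldn4 in ND and of Vim at 250 mM changed, to at most 0.11 and to -0.12. Thinning moved the log2 ratio of Tagln in ND to 2.44 and of Cdh1 in ND to 0.36. No paired analysis was possible because each condition has 1 library. Depth limits Tagln, Esrp1, Cldn4 and Zeb1 most, with 3 to 446 UMIs a library, and intervals leave out any spread between cultures.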

Other observations

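The claudin family was read after the values of its 3 members here were known. Of 23 claudin genes listed, 18 were under 5 CPM in every library, and 5 reached it, Cldn3, Cldn4, Cldn6, Cldn7 and Cldn12. Cldn3 had 15.4 CPM in NS and 21.6 in ND. At 200, 250 and 300 mM sorbitol it had 3.91, 5.12 and 5.07. Its log2 ratio to NS was 0.49 in ND and -1.98, -1.59 and -1.61 with sorbitol, lower than that of Cldn4 or Cldn7 at every dose by CPM. Cldn12 was nearly level, with 8.94, 9.49, 8.35, 9.93 and 9.04 CPM in the same order. Claudins below NS with sorbitol by 1.5-fold at all doses were thus 3 of the 5, Cldn3, Cldn4 and Cldn7. Of all measured genes, 11%, 8.69% and 10.6% were lower at the doses by CPM. By median-of-ratios scaling these were 18.5%, 16.1% and 18.8%. All of these are shares at a single dose, and the share of genes lower at all doses was not counted. Cldn4 and Cldn7 are members already counted above, so only Cldn3 is added, at 3.91 to 5.12 CPM with sorbitol. At 200 mM Cldn3 reached the 5 CPM minimum through NS alone, which fixed its direction.

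Among barcodes split at the median of their UMIs within a library, the intervals of a member's level in the lower and upper part were apart in 1 of 50 cases. This was Cldn6 at 300 mM, with 16.8 CPM (12.9 to 21.4) in the lower part and 26.3 (21.8 to 31.4) in the upper.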
